A study of Mus musculus with 6 samples.

Results

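The genes described here encode the cytoplasmic factors that start, lengthen and end a polypeptide chain on the ribosome. They were taken by symbol: every gene whose name begins with Eif1 to Eif6, Eef1 or Eef2, together with Etf1, Gspt1, Gspt2 and Pabpc1 to Pabpc6, and without the Eif2ak kinases. The rule found 68 of the 32531 genes counted. It used no measured value, though it was set with earlier results of these data known. Of these, 64 had enough counts to be tested. The libraries came from translating ribosome affinity purification (TRAP), which tags a ribosomal protein in selected cells and pulls the ribosomes that carry it out of a tissue homogenate with their RNA. All mice were adult, untreated animals of the Cbln1-EGFP/Rpl10a line NIDA030, and all tissue was dissected thalamus. The IP group held 3 libraries of RNA from the immunopurified ribosomes, and the Input group held 3 libraries of RNA that was not immunopurified.

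Both groups carried the transgene. The tagged protein is made where the Cbln1 sequences of the transgene are active, so the IP is a selection of cells by that driver and the Input is a mixture of all cells. The labels describe the RNA of both groups as bound to ribosomes. No pull-down from mice without the tag is analysed here. The labels give the thalamus alone, although names attached to the counts mention the parafascicular nucleus, which lies within it. No label ties a replicate to its own animal, so a p-value here measures only how far these libraries scatter, which may be technical. In bulk RNA, fewer cells of a type and less RNA per cell cannot be told apart.

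Initiation begins when eIF2 brings the initiator tRNA to the small ribosomal subunit, with eIF1, eIF1A, eIF3 and eIF5 bound beside it. The eIF4 proteins hold the capped end of the mRNA and unwind it, and after the start codon is found eIF5B joins the large subunit. The eEF1 proteins then deliver each aminoacyl-tRNA, eEF2 moves the ribosome along, eIF5A helps at difficult peptide bonds, and the release factors encoded by Etf1, Gspt1 and Gspt2 end the chain. Neurons are known to tune this machinery near synapses, largely by phosphorylation of eIF2, of the eIF4E-binding proteins and of eEF2.

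The libraries held 23929070 to 47741219 assigned counts in Input and 45256700 to 57385828 in IP. Cbln1, the gene that names the line, stood at 79.8 ± 9.64 CPM in Input and 1428 ± 67.8 CPM in IP (SD, n = 3 each). Its log2 fold change by edgeR's quasi-likelihood test was 4.16 (SE 0.11, adjusted p = 9.66e-08). CPM are counts per 1e6 counts of the library, after library sizes were adjusted by the trimmed mean method of edgeR (TMM). Of 10 neuron markers, 10 rose in IP, and their summed level went from 12656 to 13564 CPM in Input to 24564 to 29216 CPM in IP. Of 8 oligodendrocyte markers, 8 fell (summed, 3531 to 4084 CPM in Input and 305 to 383 CPM in IP), as did 8 of 8 astrocyte markers (1630 to 1694 CPM and 417 to 469 CPM). Microglia markers fell in 6 of 7 (39.6 to 46.8 CPM and 3.82 to 6.85 CPM) and endothelial markers in 3 of 5 (7.96 to 10.1 CPM and 0.545 to 2.02 CPM), with Cldn5 at 0 counts in every IP library. The 2 of 4 choroid plexus and ependymal markers that fell belong to a list that stood at 23.9 CPM in Input replicate 1 and at 519 and 583 CPM in the other two Input libraries, against 5.54 to 49.3 CPM in IP. The part of this change of cell mixture in the differences below was not tested.

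**Figure D1:**
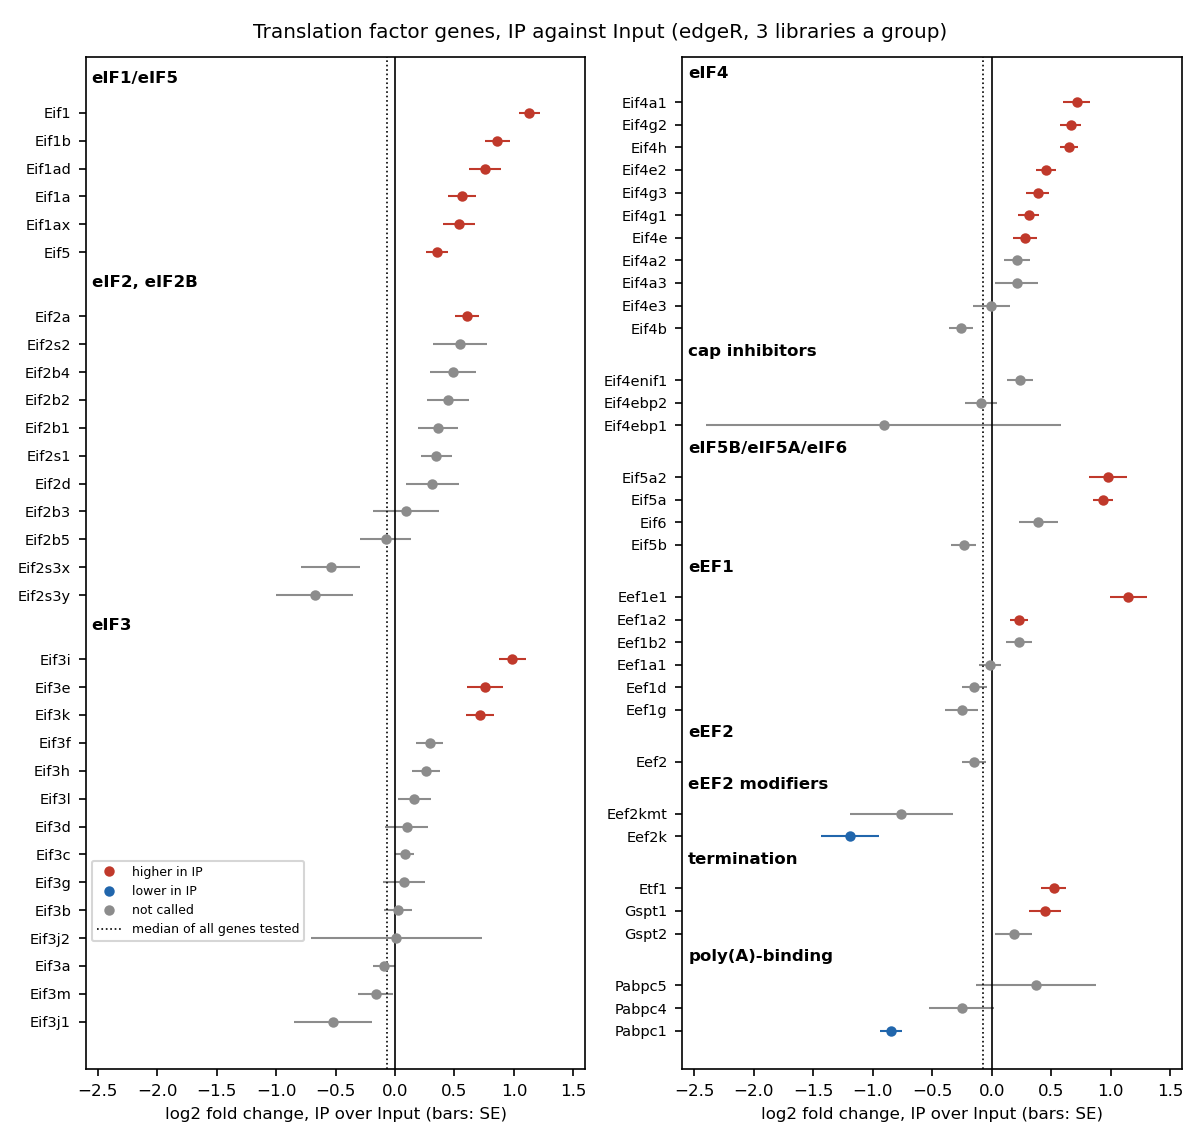
Log2 fold change of IP over Input for the 64 tested factor genes, ordered by factor complex, with standard errors as bars and the median of all tested genes as a dotted line. Red points are the 23 genes called higher in IP, blue points the 2 called lower, Eef2k and Pabpc1, and grey points the 39 not called. All 6 genes plotted under eIF1 and eIF5, Eif1ad among them, are red, and the eIF3 group runs from 3 red points to grey points on both sides of 0.

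Of the 64 factor genes tested, 23 were called higher in IP (35.9%, against 23.3% of all 16898 genes tested) and 2 were called lower (3.13%, against 24.3% of all genes), by edgeR's quasi-likelihood test at a Benjamini-Hochberg adjusted p of 0.05. The other 39 did not pass. The median log2 fold change was 0.25 for the factors and -0.07 for all genes. In 28 of the 64 factor genes every IP library lay above every Input library, as in 4719 of all 16898 genes (27.9%). In 8 of the 64 every IP library lay below, as in 5691 of all genes (33.7%). The summed level of the 68 genes was 6824, 6875 and 6839 CPM in the Input libraries, against 9068, 8460 and 8570 CPM in the IP libraries. Under the same scaling the sum over all genes tested was also higher in IP, at 1.05e+06 to 1.15e+06 CPM against 906957 to 936548 CPM. A single member, Eif4g2, went from a mean of 1157 CPM in Input to 1836 CPM in IP. The sizes were modest. Of the 64, 13 were higher at 1.5-fold or more, against 2762 of all 16898 genes tested. Of the 23 called higher, Eef1e1 and Eif1 alone passed 2-fold.

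How libraries are scaled decides many of the small differences. Upper-quartile scaling moved the median of all genes by -0.18 and scaling by library totals moved it by -0.24 on the log2 scale, and the same shift applied to each factor gene. The counts of factor genes called higher and lower went from 23 and 2 under TMM to 16 and 9 under upper-quartile scaling and to 14 and 11 under library totals. Among all genes the share of calls that were higher was 48.9%, 36.7% and 32.0% under these scalings. The distance between the median of the factors and the median of all genes was 0.32 under each of them. It did depend on the filter for low counts. With no filter the distance was 0.60, and with genes of at least 5 CPM in 3 libraries it was 0.12 (medians 0.14 and 0.02). Under that stricter filter 17 of 59 factor genes were called higher, against 27.7% of all genes, and 8 lower, against 26.9%. Changes of 14 of the 23 higher genes, and of Pabpc1 and Eef2k, passed the test in the same direction under all 14 alternatives tried. The 14 were Eif1, Eif1a, Eif1ad, Eif1b, Eif2a, Eif3e, Eif3i, Eif3k, Eif4a1, Eif4g2, Eif4h, Eif5a, Eif5a2 and Eef1e1.

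The genes of eIF1, eIF1A and eIF5, which keep the scanning ribosome open and choose the start codon, rose, 5 of 5 under TMM and 3 of 5 under each of the other 2 scalings, with a median log2 fold change of 0.56. Eif1 encodes the factor that guards against starting at the wrong codon. It stood at 76.4, 81.4 and 79.4 CPM in Input and at 181, 176 and 162 CPM in IP. Every IP library was thus above every Input library by a wide margin, and the log2 fold change was 1.13 (SE 0.09, adjusted p = 1.36e-05). The gene lies at chr11:100319885-100322096 on the plus strand (mm10), and 31.6% of its transcript, read in windows of 50 bases, also occurs in other genes. Its paralog Eif1b went from 93.3, 91.3 and 90.5 CPM to 190, 154 and 156 CPM (log2 fold change 0.86, SE 0.10, adjusted p = 0.000166). The IP values of Eif1b were more scattered than those of Eif1, with replicate 1 highest.

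eIF1A, which works opposite eIF1 in scanning, is encoded by Eif1a and the X-linked Eif1ax. Eif1a had 68.4, 80.8 and 79.7 CPM in Input and 120, 98.2 and 120 CPM in IP (log2 fold change 0.56, SE 0.12, adjusted p = 0.00338). Eif1ax had 41.2, 39.6 and 39.2 CPM in Input and 69.7, 52.0 and 52.7 CPM in IP (0.54, SE 0.13, adjusted p = 0.00912). Both genes were apart in all libraries, but the call of Eif1ax was lost under upper-quartile scaling (log2 fold change 0.36) and library totals (0.30). Eif1ad, which is named for a domain shared with eIF1A and is not counted among the 5, rose by 0.76 on the log2 scale. Eif5, the factor that makes eIF2 hydrolyse its GTP, was the most abundant gene of the group, with 302, 277 and 290 CPM in Input and 400, 322 and 387 CPM in IP. Its log2 fold change of 0.35 (SE 0.10, adjusted p = 0.0133) shrank to 0.18 under upper-quartile scaling and 0.11 under library totals, where it did not pass, and the call was also lost without Input replicate 2 (adjusted p = 0.0569).

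Of the 9 genes that encode eIF2 subunits and the exchange factor eIF2B, 0 were called in either direction by edgeR's quasi-likelihood test, with a median log2 fold change of 0.35. At an unadjusted p of 0.05, 4 of the 9 were higher and 0 lower, DESeq2 called 0 and limma-voom called 1 higher. Upper-quartile scaling called 1 of them lower and library totals called 2 lower, while 3 were called higher without IP replicate 1 and 3 without IP replicate 2, 1 being lower then. A separate gene with a similar symbol, Eif2a, rose. It is not the alpha subunit of eIF2 but encodes a protein that can bring initiator tRNA to the ribosome. It had 67.0, 65.6 and 60.8 CPM in Input and 105, 90.3 and 98.8 CPM in IP (log2 fold change 0.60, SE 0.10, adjusted p = 0.000965). The alpha subunit itself, the target of the stress kinases, is Eif2s1, at 30.4, 37.5 and 32.4 CPM in Input and 41.8, 39.3 and 46.6 CPM in IP. Its groups did not overlap, yet the adjusted p of 0.0523 missed the threshold (log2 fold change 0.35, SE 0.13). The beta subunit gene Eif2s2 was close to 37 CPM in all Input libraries (37.4, 38.4 and 36.3 CPM) and scattered in IP (76.2, 36.8 and 50.8 CPM), so the groups overlapped. Eif2s2 passed the test in a fit blocked by replicate (0.48, adjusted p = 0.0493), with no filter on low counts (0.57, adjusted p = 0.0429) and without IP replicate 2. Eif2s1 passed without IP replicate 1 or 2.

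The 5 eIF2B genes, which recharge eIF2 with GTP, ran from -0.08 (Eif2b5) to 0.49 (Eif2b4) in log2 fold change, and none passed. Eif2b2 and Eif2b4 had every IP library above every Input library, with adjusted p = 0.0597 and 0.0616. Eif2b5 had its highest value in IP replicate 2, at 45.2 CPM, and its lowest in the other two IP libraries, at 26.4 and 24.9 CPM. Leaving out IP replicate 1 brought Eif2b1 and Eif2b2 past the threshold, leaving out IP replicate 3 did so for Eif2b2, and leaving out IP replicate 2 did so for Eif2b4 and, as lower, for Eif2b5. Eif2d, which can deliver tRNA without eIF2, had a log2 fold change of 0.31 and did not pass.

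The gamma subunit of eIF2 is encoded on both sex chromosomes in the mouse. X-linked Eif2s3x had 19.9, 12.2 and 11.1 CPM in Input and 11.1, 9.74 and 8.75 CPM in IP (log2 fold change -0.54, SE 0.25, adjusted p = 0.104). Y-linked Eif2s3y had 11.9, 16.8 and 26.8 CPM in Input and 14.7, 7.71 and 12.4 CPM in IP (-0.67, SE 0.32, adjusted p = 0.115). The groups overlapped for both genes, and both were called lower under library totals, Eif2s3x also under upper-quartile scaling. Within Input the order of the libraries was opposite for the pair, with replicate 1 highest for Eif2s3x and replicate 3 highest for Eif2s3y. The Input counts of Xist, which is transcribed from the inactive X, were 165, 311 and 0, and its IP counts were 87, 34 and 0. Input counts of the Y-linked Ddx3y were 717, 1701 and 2698, and its IP counts were 1648, 1324 and 1708. Both RNAs thus differed between replicates of a group, and the part of this in the spread of Eif2s3x and Eif2s3y was not tested.

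eIF3 is the large scaffold on which the other initiation factors gather, and its genes differed in their calls. Of 14 tested, 3 rose (21.4%, against 23.3% of all genes) and none was called lower. The median log2 fold change was 0.09, which turned to -0.09 under upper-quartile scaling and -0.14 under library totals. The 3 that rose, Eif3i, Eif3k and Eif3e, encode subunits outside the pair of largest scaffold subunits, as do most of the genes that were not called. Eif3i had 97.1, 90.3 and 87.7 CPM in Input and 214, 164 and 167 CPM in IP (log2 fold change 0.99, SE 0.12, adjusted p = 0.000156). Eif3k had 82.5, 83.3 and 79.5 CPM in Input and 157, 131 and 115 CPM in IP (0.72, SE 0.12, adjusted p = 0.00104). Eif3e, with 22.0% of such windows shared, had 24.0, 19.7 and 19.3 CPM in Input and 37.6, 30.3 and 38.5 CPM in IP (0.76, SE 0.15, adjusted p = 0.00324). For these 3 genes IP and Input libraries did not overlap, and the calls held under every scaling tried.

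Eif3a, which encodes the largest subunit and had the most counts of the group, showed no such rise, at 243, 232 and 235 CPM in Input and 247, 202 and 217 CPM in IP (log2 fold change -0.09, SE 0.09, adjusted p = 0.444). It was called lower under upper-quartile scaling and library totals. Eif3c, the other core scaffold subunit, had a log2 fold change of 0.08 and Eif3b one of 0.03, and neither passed. The remaining uncalled genes lay between -0.52 for Eif3j1 and 0.29 for Eif3f, and Eif3f and Eif3h passed as higher without IP replicate 2. Eif3j1 and Eif3j2, near-copies of a loosely bound subunit, were at 4.03, 4.04 and 4.21 CPM and at 0.705, 0.50 and 0.574 CPM in Input, and at 3.12, 2.64 and 2.80 CPM and 0.760, 0.392 and 0.635 CPM in IP. Per kilobase of exon, levels could be set side by side for 8 eIF3 genes that share under 10% of their sequence with other genes. In Input the highest were Eif3g at 82.9, Eif3i at 81.7 and Eif3k at 76.1 CPM per kb, with Eif3a at 46.1 and Eif3b lowest at 12.9. In IP Eif3i reached 162 and Eif3k 125 CPM per kb, while Eif3g was at 87.5, Eif3a at 43.3 and Eif3b at 13.2 CPM per kb.

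The eIF4 group, which binds the cap and unwinds the leader, had 7 of 11 genes called higher (63.6%, against 23.3% of all genes). Its median log2 fold change was 0.31. The count fell to 4 under upper-quartile scaling and 3 under library totals, with 1 gene, Eif4b, called lower under each. Eif4g2 was the most abundant factor gene of all in CPM. It encodes DAP5, a scaffold related to eIF4G that lacks the part that binds eIF4E. Eif4g2 had 1103, 1203 and 1166 CPM in Input and 2067, 1758 and 1684 CPM in IP, or 1157 ± 50.5 against 1836 ± 203 CPM (SD, n = 3 each). The log2 fold change was 0.67 (SE 0.09, adjusted p = 0.000313), and the gene lies at chr7:111067750-111083030 on the minus strand.

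The canonical scaffolds had smaller fold changes. Eif4g1 had 114, 122 and 119 CPM in Input and 137, 153 and 150 CPM in IP (log2 fold change 0.31, SE 0.09, adjusted p = 0.0143). Eif4g3 had 246, 234 and 258 CPM in Input and 345, 283 and 338 CPM in IP (0.39, SE 0.09, adjusted p = 0.00831). The IP libraries lay above the Input libraries for both genes, but neither call held under upper-quartile scaling (0.13 and 0.21) or library totals (0.08 and 0.15). The call of Eif4g1 was also lost without Input replicate 1 or 3 (adjusted p = 0.0632 and 0.0561).

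Among the cap-binding proteins, Eif4e, the main one, had 67.9, 65.1 and 60.8 CPM in Input and 81.7, 82.2 and 71.1 CPM in IP. Its log2 fold change of 0.28 (SE 0.10, adjusted p = 0.0477) was just past the threshold, and it was lost in 11 of the 14 alternatives, among them each library left out except IP replicate 3 (adjusted p = 0.0581 to 0.183). In a fit blocked by replicate its adjusted p was 0.0618. Eif4e2 encodes 4EHP, which binds the cap but does not recruit eIF4G and acts mostly in repression. It had 94.0, 104 and 99.4 CPM in Input and a tight 136, 134 and 139 CPM in IP (0.46, SE 0.08, adjusted p = 0.00184), a call lost under library totals alone. Eif4e3 had 28.2, 29.3 and 29.6 CPM in Input and 33.9, 23.2 and 30.0 CPM in IP, with adjusted p = 0.994.

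Of the helicase genes, Eif4a1 rose. It had 51.3, 55.8 and 49.9 CPM in Input and 92.8, 74.6 and 90.7 CPM in IP (log2 fold change 0.72, SE 0.11, adjusted p = 0.000884), although 65.3% of its sequence in windows of 50 bases also occurs in other genes. Eif4a2, the paralog of Eif4a1, had 386, 406 and 409 CPM in Input and 387, 485 and 522 CPM in IP (0.21, SE 0.11, adjusted p = 0.137), with IP replicate 1 inside the Input range, and it passed as higher without that library. Eif4a3, a helicase of the exon junction complex, passed as higher without IP replicate 3. Of the helicase partners, Eif4h rose. It had 177, 175 and 184 CPM in Input and 280, 277 and 286 CPM in IP (0.65, SE 0.07, adjusted p = 0.000116). Eif4b, whose protein aids the helicase in a similar way, had 235, 224 and 225 CPM in Input and 165, 194 and 213 CPM in IP. All IP libraries of Eif4b were below all Input libraries, but with a log2 fold change of -0.26 (SE 0.10) and adjusted p = 0.0598 it missed the threshold under TMM, and it was called lower in 7 of the 14 alternatives, among them without IP replicate 3 (-0.33, adjusted p = 0.0286). Per kilobase, Eif4b stood at 55.6 and Eif4h at 65.6 CPM per kb in Input, against 46.5 and 103 CPM per kb in IP.

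Of the 3 tested inhibitors of cap binding, 0 passed edgeR's quasi-likelihood test, 0 had an unadjusted p under 0.05, and DESeq2 and limma-voom called 0. Eif4ebp2, the main eIF4E-binding protein of brain, had 48.5, 49.8 and 51.4 CPM in Input and 51.9, 38.3 and 50.6 CPM in IP (log2 fold change -0.09, SE 0.13, adjusted p = 0.616). Eif4enif1, which encodes the eIF4E transporter, had 83.1, 78.4 and 75.5 CPM in Input and 95.6, 102 and 81.0 CPM in IP (0.24, SE 0.11, adjusted p = 0.104), and it passed as higher without IP replicate 3. Eif4ebp1 was near the limit of detection, with 9, 25 and 27 counts in Input and 0, 33 and 0 counts in IP, and it was called lower only when IP replicate 2 was left out.

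Both genes for eIF5A, the factor that carries hypusine and eases the joining of prolines, rose. Eif5a had 122, 136 and 119 CPM in Input and 246, 245 and 230 CPM in IP (log2 fold change 0.94, SE 0.09, adjusted p = 3.56e-05). Eif5a2 had 137, 132 and 123 CPM in Input and 314, 189 and 270 CPM in IP (0.98, SE 0.16, adjusted p = 0.00114), more scattered but still apart from Input. Eif5b, which joins the subunits, had every IP library below every Input library (171, 196 and 181 against 168, 135 and 163 CPM) with adjusted p = 0.0979. Eif6, which keeps the large subunit free, had every IP library above (log2 fold change 0.39, adjusted p = 0.0712), and neither was called under TMM. Eif5b was called lower under upper-quartile scaling, library totals with or without Rn45s, and the filter of 5 CPM in 3 libraries. It was also called lower by DESeq2 (-0.28, adjusted p = 0.0362) and without IP replicate 1. Eif6 passed as higher with no filter on low counts and without IP replicate 1 or 3.

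Of the 5 genes of eEF1A and its exchange factor, Eef1a2 alone was called higher and none lower, with a median log2 fold change of -0.01. Under upper-quartile scaling 0 were higher and 2 lower, and under library totals 0 were higher and 3 lower. Eef1e1, which shares the symbol, had the largest rise of all factor genes, from 25.0, 20.3 and 18.1 CPM to 50.7, 41.0 and 48.6 CPM (log2 fold change 1.15, SE 0.16, adjusted p = 0.000347). Its protein is named for a likeness to eEF1 subunits and is a part of the complex of aminoacyl-tRNA synthetases. The gene lies at chr13:38644207-38659058 on the minus strand. Eef1a2, the form of eEF1A that adult neurons and muscle are known to use, had 231, 241 and 227 CPM in Input and 270, 286 and 265 CPM in IP (0.23, SE 0.08, adjusted p = 0.0298). That small rise was not called under upper-quartile scaling (0.05), and under library totals it turned to -0.0039. The call was lost in 7 of the 14 alternatives. It was also lost without any 1 of the Input libraries (adjusted p = 0.0612 to 0.122).

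Eef1a1, the form of eEF1A in most other cells, had 274, 280 and 266 CPM in Input and 305, 242 and 266 CPM in IP (log2 fold change -0.01, SE 0.10, adjusted p = 0.918), and 60.6% of its sequence in windows of 50 bases occurs in other genes, so its level is uncertain. Eef1b2, Eef1d and Eef1g, the subunits that recharge eEF1A, had log2 fold changes of 0.23, -0.14 and -0.25 and did not pass, though Eef1b2 did as higher without IP replicate 1. Eef1d and Eef1g had every IP library below every Input library, and both were called lower under upper-quartile scaling and library totals, as was Eef1a1 under library totals alone. Eef2, the translocase, had 641, 598 and 652 CPM in Input and 499, 650 and 560 CPM in IP (-0.15, SE 0.10, adjusted p = 0.261), with IP replicate 2 inside the Input range. It too was called lower under upper-quartile scaling and library totals, and without IP replicate 2 (-0.24, adjusted p = 0.037).

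The kinase that shuts eEF2 off had the largest fall of all factor genes. Eef2k had 14.3, 12.4 and 17.2 CPM in Input and 7.12, 4.62 and 7.50 CPM in IP, or 14.6 ± 2.43 against 6.41 ± 1.57 CPM (SD, n = 3 each). The log2 fold change was -1.19 (SE 0.24, adjusted p = 0.00352), and no IP library reached the lowest Input library. The gene lies at chr7:120842831-120907450 on the plus strand. Eef2kmt, a methyltransferase of eEF2, had a log2 fold change of -0.76 and adjusted p = 0.176, at 3.46 CPM in Input and 2.05 CPM in IP.

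The mRNAs of many translation factors are known to begin with a run of pyrimidines (C or T in DNA letters), the 5′ terminal oligopyrimidine motif through which the mTORC1 kinase controls their translation. Windows of 30 bases, 10 before and 20 from each start listed by RefSeq (GRCm38.p6), were searched on the strand of the gene for an unbroken run of 8 or more pyrimidines. A run found this way can lie partly or wholly before the listed start, outside the listed mRNA. Starts were listed for 48 of the 64 tested members, and 9 of those (18.8%) held such a run, against 1622 of 11586 tested genes with a listed start (14.0%). The members with the longest runs at their only listed start are shown so that the run can be set beside the change of each gene, with the run in capitals, 5′ to 3′ on the strand of the gene.
Eif2s3x: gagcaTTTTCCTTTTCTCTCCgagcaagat
Eif3f: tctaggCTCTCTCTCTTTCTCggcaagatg
Eif2b5: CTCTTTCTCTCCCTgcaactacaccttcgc
Eif2s3y: ggccacagccaCTTCCTTCTTTCgtgagca
Eef1a1: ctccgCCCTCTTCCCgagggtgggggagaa
Eif3l: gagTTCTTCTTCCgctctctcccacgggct
Their windows are chrX:94212632-94212661, chr7:108934405-108934434, chr16:20498807-20498836, chrY:1010585-1010614, chr9:78481705-78481734 and chr15:79075213-79075242, on the minus strand for Eif2s3x and Eef1a1 and on the plus strand for the others. The 6 genes had log2 fold changes of -0.54, 0.29, -0.08, -0.67, -0.01 and 0.16, and none was called. All of these runs except that of Eif2s3y begin before the listed start. The next 4 windows were picked by change rather than by run, so the sets are not a test of one against the other. They belong to the genes with the largest rises at a single listed start, again with the longest pyrimidine run in capitals.
Eef1e1: gtcctagctgtgcaggccccgCCTCCCTag
Eif1: ggcgTCacaggggcggctatataagtgaat
Eif5a2: gCCCgggctgggcgggccggggcggggagc
Eif1b: gcgcggggCTaaatacgcggcgccggccat
They are chr13:38659009-38659038 on the minus strand and chr11:100319939-100319968, chr3:28781267-28781296 and chr9:120492596-120492625 on the plus strand. In these 4 windows the longest runs had 7, 2, 3 and 2 bases, and the log2 fold changes were 1.15, 1.13, 0.98 and 0.86.

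Over all listed starts, 1 of the 9 members with a run was called higher, Eif4e at the second of its 2 starts, and none was called lower, with a median log2 fold change of 0.16. The Eif4e run lies wholly before that start. Of the 39 members without one, 17 were called higher and 1 lower, with a median of 0.31. Runs that reach the edge of a window were cut there. The windows of Eef2 and Eif3k end in runs of 6 and 7 pyrimidines, and both genes were counted as without a run. Pabpc1, Eef1d and Eef1g had no listed start and are in neither set. The split therefore cannot decide whether genes with such a run changed differently. Among all tested genes with a listed start, 25.0% of those with a run and 25.6% of those without were called higher, with medians of -0.05 and 0.00. A listed start need not be the start used in these cells, and the letters are a description, not a site.

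Of the release factors, Etf1, which reads the stop codon, had 85.1, 84.5 and 91.7 CPM in Input and 110, 137 and 128 CPM in IP (log2 fold change 0.52, SE 0.10, adjusted p = 0.00315). Its partner GTPase Gspt1 had 90.5, 86.1 and 93.7 CPM in Input and 141, 97.3 and 131 CPM in IP (0.45, SE 0.13, adjusted p = 0.0209). Neither call held under library totals (0.29 and 0.21), and that of Gspt1 was also lost under upper-quartile scaling and without IP replicate 3, Input replicate 1 or Input replicate 2 (adjusted p = 0.0556 to 0.0747). Gspt2, an intronless copy on the X chromosome, had 17.1, 14.2 and 14.9 CPM in Input and 17.3, 18.5 and 16.7 CPM in IP (0.18, SE 0.16, adjusted p = 0.362), with IP replicate 3 below the highest Input library.

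The poly(A)-binding proteins tie the tail of the mRNA to eIF4G, and their main gene fell. Pabpc1 had 121, 136 and 128 CPM in Input and 69.4, 68.9 and 76.6 CPM in IP, or 128 ± 7.82 against 71.6 ± 4.33 CPM (SD, n = 3 each). The log2 fold change was -0.84 (SE 0.09, adjusted p = 0.000109). The highest IP library was well below the lowest Input library. The gene lies at chr15:36595661-36609668 on the minus strand, and 20.7% of its sequence in windows of 50 bases occurs in other genes. Pabpc4 had 5.60, 5.56 and 5.78 CPM in Input and 3.72, 4.92 and 5.57 CPM in IP (-0.25, SE 0.28, adjusted p = 0.481). Its level is uncertain, since 70.7% of its sequence in windows of 50 bases occurs in other genes. Pabpc5, on the X chromosome, had 3.41, 3.25 and 4.40 CPM in Input and 8.54, 1.87 and 3.93 CPM in IP, so that IP replicates 1 and 2 enclosed every other value.

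The 4 members that could not be tested were Eif4e1b, Pabpc2 and Pabpc6, with 0 counts in all libraries, and Eif4ebp3, with 1, 7 and 0 counts in Input and none in IP. A count of 0 allows up to 3 counts, or 0.0523 to 0.125 CPM depending on the library, for counting error only. Shared sequence limits other members: of the 64 tested, 15 had over 20% of their 50-base windows in other genes and 6 had over 50%.

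**Figure D2:**
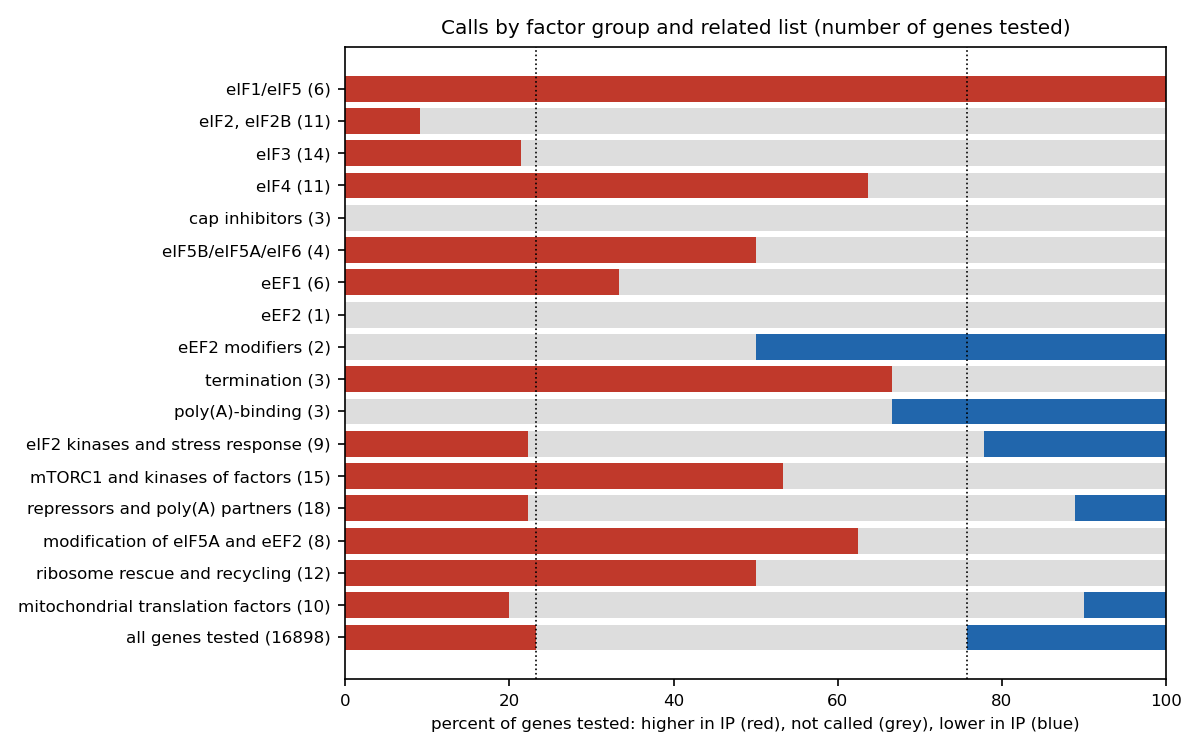
Percent of tested genes called higher in IP (red), not called (grey) and called lower (blue) for each factor complex, the lists of related translation genes and all genes, with the number tested in brackets. Dotted lines carry the shares of all genes, 23.3% higher and 24.3% lower, up the plot. The bar for eIF1 and eIF5, drawn with Eif1ad, is the one with every gene called higher (6 of 6), and the bar for eIF2 and eIF2B, drawn with Eif2a and Eif2d, has 1 of 11, Eif2a.

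Several factor genes have paralogs. Some encode nearly the same protein, and others, such as Eif4g2 and Eif4e2, encode proteins that differ in what they bind. The balance within such pairs can be read inside each library without any scaling between libraries. Of 14 pairs, 5 had IP and Input ratios that did not overlap. With 3 libraries against 3 the exact two-sided permutation test cannot go below p = 0.1, and the Benjamini-Hochberg value over the 14 pairs was 0.28 for these 5, so none can pass 0.05. Eif4a2 over Eif4a1 went from log2 ratios of 2.91, 2.86 and 3.03 in Input to 2.06, 2.70 and 2.52 in IP. The share of Eif4a2 in the counts of the pair went from 88.4% to 84.2%. This share is uncertain, since 65.3% of the 50-base windows of Eif4a1 occur in other genes. Eif1b over Eif1 went from 0.29, 0.17 and 0.19 to 0.07, -0.20 and -0.05, so Eif1b had more counts than Eif1 in every Input library and in 1 of 3 IP libraries. Levels of these genes are not set side by side per kilobase, since part of the sequence of Eif1 is shared with other genes. The ratio of Eef1a2 to Eef1a1 went from -0.24, -0.22 and -0.23 to -0.17, 0.24 and -0.01, and the share of Eef1a2 in the counts went from 46.0% to 50.3%. Input ratios of that pair were nearly identical, and the IP ratios were spread. The shares of that pair are uncertain too, since 60.6% of the 50-base windows of Eef1a1 occur in other genes.

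Eif4g2 over Eif4g1 had log2 ratios of 3.28, 3.30 and 3.29 in Input and 3.91, 3.52 and 3.49 in IP, a difference of 0.35. Pabpc4 over Pabpc1 had a difference of 0.57, with Pabpc4 at 4.22% of the pair in Input and 6.18% in IP. These shares are uncertain, since 70.7% of the 50-base windows of Pabpc4 occur in other genes. The other 9 pairs overlapped. Eif5a2 over Eif5a (0.01) and Eif1ax over Eif1a (-0.04) had the smallest differences, both genes of each pair having risen. The differences of the Eif4g3 to Eif4g1, Eif5a2 to Eif5a, Eif1ax to Eif1a and Eif2s3y to Eif2s3x ratios changed sign when 1 library was left out.

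**Figure D3:**
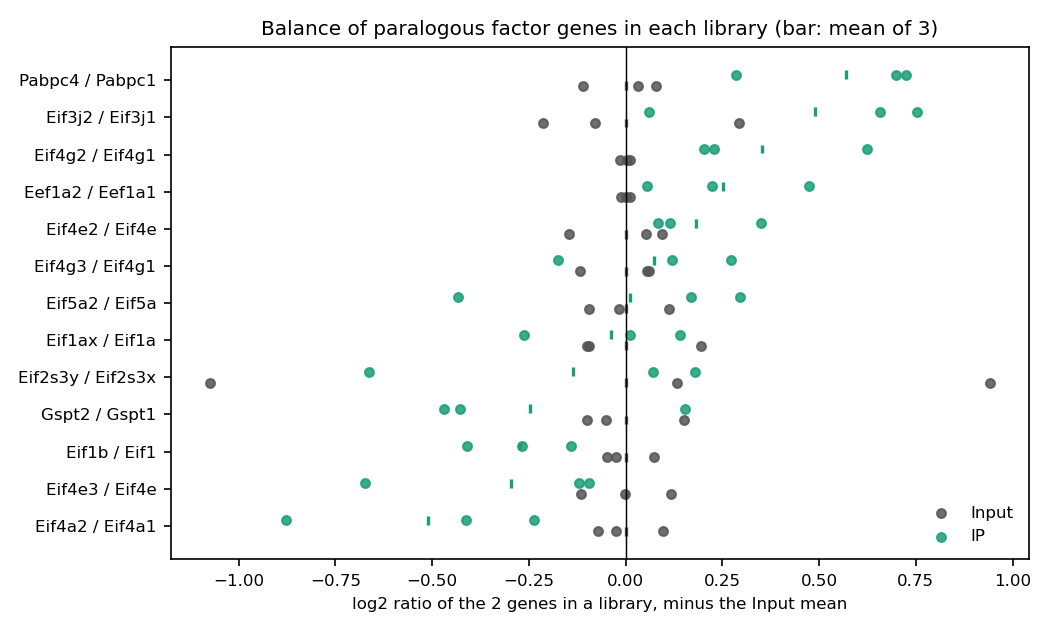
Log2 ratio of the 2 genes of each pair in each library, minus the mean of the Input libraries, with Input in grey, IP in green and a tick at the mean of 3 libraries. Eif4a2 to Eif4a1 and Eif1b to Eif1 have every IP point to the left of every Input point, and Pabpc4 to Pabpc1, Eif4g2 to Eif4g1 and Eef1a2 to Eef1a1 have every IP point to the right. The pair Eif4ebp2 to Eif4ebp1 is left out because Eif4ebp1 had 0 counts in 2 IP libraries.

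The regulators around the factors are given from lists chosen by function, with earlier results of these data known. Of all genes tested, 23.3% were called higher and 24.3% lower under TMM. These shares were 17.1% and 29.5% under upper-quartile scaling, and 14.6% and 31.0% under library totals. In the stress pathway that phosphorylates eIF2, 2 of 9 genes rose and 2 fell (22.2% each), near the shares of all genes. Under each of the other 2 scalings 3 were called lower. Atf4, the transcription factor made when eIF2 is phosphorylated, had 177, 186 and 177 CPM in Input and 420, 455 and 386 CPM in IP (log2 fold change 1.22, SE 0.08, adjusted p = 8.03e-06). The kinase gene Eif2ak1 rose by 0.77, while Eif2ak2, the kinase that senses double-stranded RNA, had 8.61, 9.68 and 8.76 CPM in Input and 2.30, 2.14 and 3.69 CPM in IP (-1.74, SE 0.30, adjusted p = 0.00128). Impact, a neuronal inhibitor of the kinase GCN2, fell by 0.43. These 4 calls held under all 14 alternatives.

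Of 15 genes of the mTORC1 pathway and of the kinases of translation factors, 8 rose (53.3%) and none fell, with a median of 0.31. The count was 4 under upper-quartile scaling, and under library totals it was 4, with 1 called lower. Rheb, the GTPase that switches mTORC1 on, had 113, 120 and 124 CPM in Input and 280, 263 and 254 CPM in IP (log2 fold change 1.16, SE 0.08, adjusted p = 9.27e-06). Mknk2, a kinase of eIF4E, rose by 1.06, and Rps6kb1, the kinase that acts on eIF4B and eEF2K, rose by 0.62.

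The enzymes that modify eIF5A and eEF2 had 5 of 8 higher (62.5%) and none lower, with a median of 0.56. The count was 4 under upper-quartile scaling, 2 under library totals and 3 without Input replicate 1. Dph6, of the diphthamide pathway of eEF2, was called in 6 of the 14 alternatives. Dhps, the enzyme of the first step of hypusine formation on eIF5A, had 17.1, 15.1 and 13.4 CPM in Input and 23.4, 26.3 and 27.3 CPM in IP (log2 fold change 0.76, SE 0.16, adjusted p = 0.00351). Dohh, the enzyme of the step after it, rose by 0.68, a call lost under library totals and without Input replicate 1. Both genes of the eIF5A protein and both enzymes of its modification were thus called higher under TMM. In ribosome rescue and recycling 6 of 12 rose (50%) and none fell, with a median of 0.57, and 5 were called under each of the other 2 scalings. Tcf25, of the ribosome quality control complex, had 674, 631 and 669 CPM in Input and 1225, 1467 and 1301 CPM in IP (1.02, SE 0.08, adjusted p = 2.01e-05). Denr and Mcts1, partners in recycling and in reinitiation, rose by 0.77 and 0.92.

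Among repressors and partners of the poly(A)-binding protein, 4 of 18 rose (22.2%) and 2 fell (11.1%) under TMM, against 23.3% and 24.3% of all genes. Under upper-quartile scaling 2 were higher and 5 lower, and under library totals 2 were higher and 6 lower. The median of 0.10 turned to -0.07 and -0.13, and 2 were called higher without Input replicate 1 or 3. Paip2, an inhibitor of the poly(A)-binding protein, had 195, 191 and 183 CPM in Input and 390, 293 and 358 CPM in IP (log2 fold change 0.87, SE 0.11, adjusted p = 0.000208). It rose where Pabpc1 fell. Cyfip1 and Cyfip2, paralogs whose proteins bind FMRP, passed in opposite directions: Cyfip1 had 33.8, 29.0 and 29.7 CPM in Input and 18.2, 19.0 and 16.2 CPM in IP (-0.79, SE 0.14, adjusted p = 0.0016), and Cyfip2 rose by 0.64. The mitochondrial factors, which work on a separate ribosome, had 2 of 10 higher (20%) and 1 lower (10%). There were 1 higher and 3 lower under each of the other 2 scalings and 1 higher and 2 lower in a fit blocked by replicate. Without any 1 library other than IP replicate 1, 1 was called higher, and 2 were called lower without IP replicate 2. The median of 0.06 turned to -0.12 under upper-quartile scaling. Mrrf, the mitochondrial recycling factor, had 14.8, 16.0 and 14.8 CPM in Input and 29.9, 22.7 and 23.7 CPM in IP (0.74, SE 0.16, adjusted p = 0.00432), and Gfm2, its partner GTPase, had 14.8, 18.9 and 20.2 CPM in Input and 11.2, 12.4 and 6.16 CPM in IP (-0.86, SE 0.27, adjusted p = 0.0253). The call of Gfm2 was lost without Input replicate 2 or 3.

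**Figure D4:**
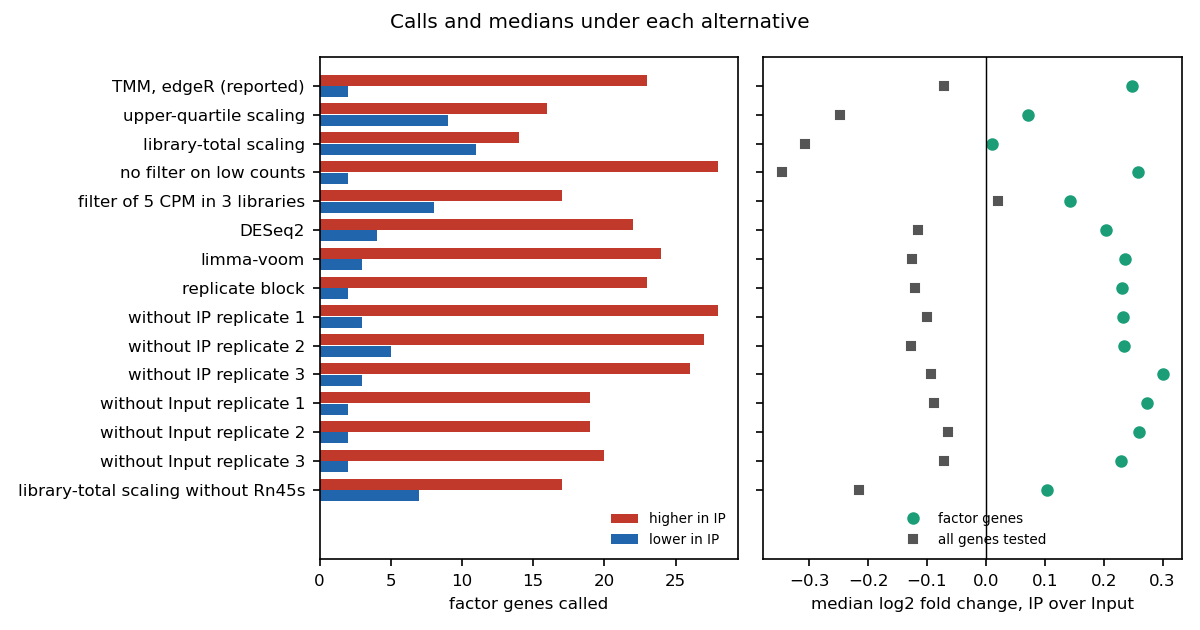
Left, number of factor genes called higher (red) and lower (blue) in IP under the reported analysis and each alternative. Right, median log2 fold change of the factor genes (green circles) and of all tested genes (grey squares), where the median of the factor genes lies above that of all genes in every setting and is lowest, at 0.01, under library totals.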

How the data were processed

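Per the submitters' processing notes, the authors aligned reads with STAR 2.0.0e to mm10 and counted them with HTSeq. The deposited values were raw counts per gene, 1 file per library. The strand setting, the annotation and the version of HTSeq are not given in the sources used here. Overlapping and antisense genes therefore cannot be separated. Lines that name no gene were left out. Among them, alignments that were not unique took 32.7% to 34.0% of all values in Input and 43.2% to 49.7% in IP. The 45S precursor Rn45s took 5.21% to 5.40% of assigned counts in Input and 9.38% to 14.5% in IP, and it stayed in. Every pair of replicates differed beyond sampling noise (chi-square per degree of freedom 12.3 to 141).

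The sample-type label gave the groups, and titles gave the replicate numbers. Libraries with the same number in both groups carry the same lane code in the labels (lane 1, 5 or 6 for replicates 1, 2 and 3), so the number was taken to pair them by lane. Their deviations from the group means correlated at 0.064, 0.039 and 0.012, and 5 of 6 libraries correlated best with their own number. Xist was at 0 counts in replicate 3 of both groups, and Ttr was at 2.78 CPM in Input replicate 1 and 0 in IP replicate 1 against 35.0 to 542 CPM in the others. The members and lists were chosen with earlier results of these data known. In R 4.3.3, edgeR 4.0.16 (TMM, filterByExpr with a minimum count of 10, robust quasi-likelihood F-test) compared IP with Input over 16898 genes. Adjusted p-values are Benjamini-Hochberg over all of them, with a threshold of 0.05, and SE is the log2 fold change divided by the square root of F. Scripts were tested on simulated counts. Pair ratios used log2 of counts plus 0.5. Full values were given for both members of tested pairs, for the most abundant member and the largest called rise and fall of each factor group (mean of at least 5 CPM), and for the largest called rise and fall of each related list; other genes with values by library were chosen after their values were seen. Coordinates, merged exon lengths and shared 50-base windows came from GENCODE M21 (mm10), in which 68 of 68 symbols matched. The alternatives were 2 scalings, 2 filters, DESeq2 1.42.0, limma-voom (limma 3.58.1), a replicate block and each library left out, and scaling by totals without Rn45s, which was added after the data were seen.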

Additional observations from a re-analysis of the deposited data

How the results depend on the processing

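Calls of 14 of 23 higher factor genes, of the 2 lower ones and of 16 of the 39 uncalled kept their side under 14 alternatives. Scaling by library totals gave 2464 genes higher in IP against 3930, and 14 factor genes higher and 11 lower with a median of 0.011; upper-quartile scaling gave 9 lower and a median of 0.071; a filter of 5 CPM in 3 libraries gave 8 lower and 0.14; totals without Rn45s gave 7 lower and 0.10, and DESeq2 gave 4 lower. Leaving out 1 library gave 3113 to 4392 genes higher and 3017 to 5066 lower, 19 to 28 factor genes higher and 2 to 5 lower (5 without IP replicate 2), and factor medians of 0.23 to 0.30. Eef1a2 turned to -0.0039 under library totals (adjusted p = 0.976). Differences of pair ratios, with 1 library left out, ran from -0.028 to 0.20 (Eif4g3 to Eif4g1, below 0 without IP replicate 1), -0.13 to 0.23 (Eif5a2 to Eif5a, below 0 without Input replicate 2, IP replicate 1 or IP replicate 3), -0.13 to 0.075 (Eif1ax to Eif1a, above 0 without Input replicate 1 or IP replicate 3) and -0.67 to 0.33 (Eif2s3y to Eif2s3x, above 0 without Input replicate 3 or IP replicate 2). A single gene counted as reversed only where it was called. The cause was not tested. A replicate block gave 23 factor genes higher and 2 lower (22 and 2 of those called without it), a median of 0.23, and 3793 genes higher and 4038 lower in all. Among factor genes it changed the calls of Eif2s2 (called higher, adjusted p = 0.0493) and Eif4e (not called, 0.0618) and no others. Depth limits Eif4ebp1, Eif4ebp3 and Eif3j2, at under 1 CPM.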
